A study of Homo sapiens with 3 samples.

Results

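The miR-181 family comprises the mature miRNAs cut from 6 hairpin precursors that lie in pairs on chromosomes 1, 9 and 19. The members were chosen by name and not by their values: hsa-miR-181a-5p, hsa-miR-181b-5p, hsa-miR-181c-5p, hsa-miR-181d-5p, hsa-miR-181a-3p, hsa-miR-181a-2-3p and hsa-miR-181c-3p, which are 7 of the 2588 mature miRNAs listed. The same tables hold 3 further products of these hairpins, miR-181b-3p, miR-181b-2-3p and miR-181d-3p, which are given beside the members and are not counted among them. The study asked how abundant miR-21-5p is in different cancer cells, and to this end sequenced the small RNAs of 3 parental human lines: C643, derived from an anaplastic thyroid carcinoma, ES-2, derived from an ovarian carcinoma, and Huh-7, derived from a hepatocellular carcinoma. All lines were untreated, kept in DMEM with serum and harvested 48 h after seeding. Each line is 1 library, so no difference between lines has a replicate check or a p-value. Every interval covers counting error only, and the read test given below compares libraries and not lines. A difference between lines can also not be told apart from a difference between libraries.

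Depth differed between the lines, with 8183100 reads on annotated miRNAs in C643, 2173587 in Huh-7 and 1663181 in ES-2. A miRNA with 0 reads may therefore have up to 0.367 RPM, reads per 1000000 miRNA reads, in C643, 1.38 in Huh-7 and 1.80 in ES-2, the level of 3 reads. miR-21-5p was the most abundant miRNA of each line, with 28.6% of reads in C643, 33.3% in Huh-7 and 28.2% in ES-2. The label of Huh-7 was checked by 5 liver miRNAs, with miR-122-5p as the defining one, which summed to 15.6% of reads in Huh-7, 0.0208% in C643 and 0.0132% in ES-2. Defining miRNAs of thyroid or ovary were not among the lists. C643 was deposited in a table of its own and the other lines in a second one, so levels are given here as a share of each library's own reads, in RPM.

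A miRNA hairpin is cut by Drosha in the nucleus and by Dicer in the cytoplasm into a short duplex, and 1 strand of it, from the 5p or the 3p arm, is loaded into an Argonaute protein. Bases 2 to 8 of the loaded strand, the seed, pair with target mRNAs, so miRNAs with a shared seed have overlapping targets. miR-181a is best known from lymphocytes, where it sets the sensitivity of developing T cells to antigen, and members of the family have been studied in liver cancer and in many other tumours. The 5p arms are usually regarded as the main products of the family.

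The mature sequences are shown because the comparisons depend on which members share a seed and which can be assigned to a locus. They were taken from RefSeq (GRCh38.p14), are written 5′ to 3′, and have the seed in capitals.
hsa-miR-181a-5p: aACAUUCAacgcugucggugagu
hsa-miR-181b-5p: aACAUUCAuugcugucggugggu
hsa-miR-181c-5p: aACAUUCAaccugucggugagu
hsa-miR-181d-5p: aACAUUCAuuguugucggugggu
hsa-miR-181a-3p: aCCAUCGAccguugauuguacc
hsa-miR-181a-2-3p: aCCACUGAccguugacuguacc
hsa-miR-181c-3p: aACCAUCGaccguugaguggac
hsa-miR-181b-3p: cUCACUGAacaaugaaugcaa
hsa-miR-181b-2-3p: cUCACUGAucaaugaaugca

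All 4 of the 5p arms carry the seed ACAUUCA. Counted from the 5′ end, miR-181a-5p and miR-181b-5p differ by A9U, C10U and A21G, all outside the seed. miR-181b-5p and miR-181d-5p differ by C12U alone, and miR-181c-5p is 1 edit away from miR-181a-5p, being 22 bases long instead of 23. Reads of the rare miR-181c-5p and miR-181d-5p were thus told apart from those of their abundant relatives by 1 base. Reads could be exchanged between such relatives in counting, and how many of the rare reads this concerns was not tested. The levels and ratios of miR-181c-5p and miR-181d-5p below carry this limit. The only other listed miRNA with this seed, miR-4262, had 0 reads in each library. The 3p arms are less alike. miR-181a-3p and miR-181a-2-3p differ by U5C, C6U and U16C, of which U5C and C6U lie in the seed, so the chromosome 1 and chromosome 9 hairpins give the same 5p miRNA but 3p miRNAs with different seeds (CCAUCGA and CCACUGA). miR-181c-3p has its own seed, ACCAUCG, and both 3p arms of miR-181b share UCACUGA.

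The hairpins of miR-181a, also from RefSeq, show this arrangement. Capitals mark the 5p arm, which is identical in both, and after the loop the 3p arm, which is not.
MIR181A1: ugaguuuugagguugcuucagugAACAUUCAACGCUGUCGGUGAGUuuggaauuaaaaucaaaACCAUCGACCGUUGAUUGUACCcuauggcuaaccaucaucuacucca
MIR181A2: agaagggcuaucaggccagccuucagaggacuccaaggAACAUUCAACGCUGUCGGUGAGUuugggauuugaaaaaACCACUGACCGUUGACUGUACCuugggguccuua

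On GRCh38, MIR181A1 lies at chr1:198859044-198859153 and MIR181B1 at chr1:198858873-198858982, both on the minus strand, 62 bases apart, in an intron of the long non-coding RNA gene MIR181A1HG. MIR181A2 lies at chr9:124692442-124692551 and MIR181B2 at chr9:124693710-124693798, both on the plus strand and 1159 bases apart. They sit in an intron of MIR181A2HG and, on the opposite strand, within an intron of the nuclear receptor gene NR6A1. MIR181C, at chr19:13874699-13874808, and MIR181D, at chr19:13874875-13875011, are 67 bases apart on the plus strand, within the gene NANOS3 but in none of its annotated exons. miR-181a-5p and miR-181b-5p therefore have a locus on chromosome 1 and another on chromosome 9 with the same mature sequence, and the 7 members have 9 loci in all.

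The 5p arms of miR-181a and miR-181b made up nearly all of the shared-seed reads in each line. miR-181a-5p had 1780 RPM in C643 (95% Wilson interval, 1752 to 1810), 2810 RPM in Huh-7 (2740 to 2881) and 1086 RPM in ES-2 (1037 to 1137). Its rank among all miRNAs was 50 in C643, 46 in Huh-7 and 59 in ES-2. miR-181b-5p had 1682 RPM in C643 (1654 to 1710), 3170 RPM in Huh-7 (3096 to 3246) and 1073 RPM in ES-2 (1025 to 1124), at ranks 53, 42 and 60 in the same order. For both miRNAs Huh-7 was highest and ES-2 lowest, and none of the 3 intervals overlapped.

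miR-181d-5p and miR-181c-5p, the products of the chromosome 19 pair, were scarce. miR-181d-5p had 178 reads or 21.8 RPM in C643 (18.8 to 25.2), 147 reads or 67.6 RPM in Huh-7 (57.5 to 79.5) and 37 reads or 22.2 RPM in ES-2 (16.1 to 30.7). By share of reads Huh-7 stood above the other lines, while C643 and ES-2 were not distinguishable at this depth. The size of the Huh-7 excess depended on the scaling, as given below. miR-181c-5p had 84 reads or 10.3 RPM in C643 (8.29 to 12.7), 30 reads or 13.8 RPM in Huh-7 (9.67 to 19.7) and 10 reads or 6.01 RPM in ES-2 (3.27 to 11.1). Neighbouring levels in the order Huh-7, C643 and ES-2 had overlapping intervals. By share of reads, Huh-7 was 2.3-fold above ES-2, with an interval of the ratio (1.09 to 5.26) that stops just short of equal levels. The sign of this difference depended on the scaling, as given below.

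Together the 4 seed-sharing 5p arms took 0.349% of reads in C643 (0.345 to 0.353), 0.606% in Huh-7 (0.596 to 0.617) and 0.219% in ES-2 (0.212 to 0.226). As a share of reads, their sum was 2.77-fold higher in Huh-7 than in ES-2 (95% interval, 2.67 to 2.88), 1.73-fold higher in Huh-7 than in C643 (1.70 to 1.77) and 1.60-fold higher in C643 than in ES-2 (1.54 to 1.65). The size of these differences and, for miR-181a-5p and miR-181c-5p, the order of the lines depended on how the libraries were scaled. The median miRNA seen in both libraries was itself shifted, with log2 ratios of -1.39 for ES-2 over Huh-7, -0.75 for C643 over Huh-7 and 0.31 for C643 over ES-2. Relative to that median, the log2 difference of miR-181a-5p was 0.02 for ES-2 minus Huh-7, 0.09 for C643 minus Huh-7 and 0.40 for C643 minus ES-2. With the authors' scaling kept as deposited, these differences were -0.46, -0.01 and 0.45. miR-181a-5p was thus above the median miRNA's shift in C643 against ES-2 and close to it in the pairs with Huh-7. For miR-181b-5p, Huh-7 stayed above ES-2 and C643 under each of these scalings. Relative to the median, ES-2 minus Huh-7 and C643 minus Huh-7 were both -0.17. miR-181d-5p also stayed highest in Huh-7. Its ES-2 minus Huh-7 difference was -1.56 by share, -0.67 as deposited and -0.17 relative to the median. Its C643 minus Huh-7 differences were -1.59, -0.955 and -0.85 in this order. For miR-181c-5p, ES-2 minus Huh-7 was -1.08 by share, -0.25 as deposited and 0.31 relative to the median.

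**Figure D1:**
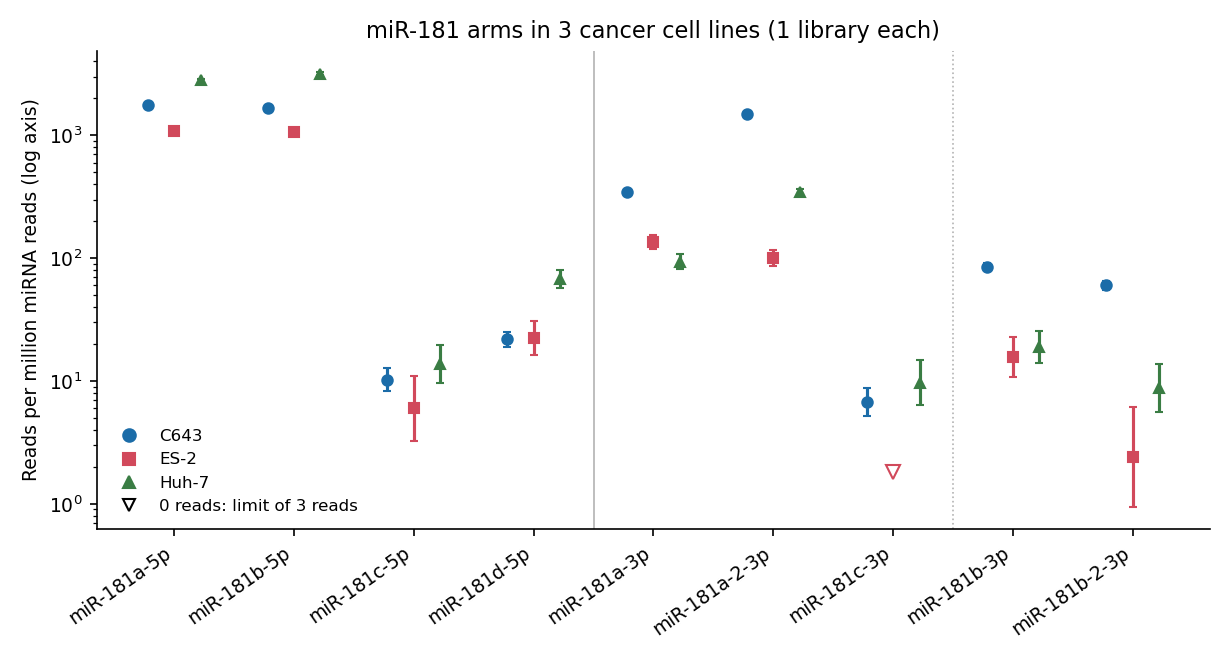
Level of each miR-181 arm (x axis) in reads per 1000000 miRNA reads (log y axis) in the 1 library of C643 (circles), ES-2 (squares) and Huh-7 (triangles). Bars are 95% Wilson intervals of counting error, and the open symbol marks 0 reads at the limit of 3 reads. miR-181a-5p and miR-181b-5p lie between 1073 and 3170 RPM in all lines, whereas the 3p arms of miR-181a and miR-181b are highest in C643.

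Both 3p arms of miR-181a ranked the lines differently from miR-181a-5p, whereas miR-181c-3p had the same order as miR-181c-5p. miR-181a-3p, from chromosome 1, had 345 RPM in C643 (332 to 358), 93.4 RPM in Huh-7 (81.4 to 107) and 135 RPM in ES-2 (119 to 154). It was highest in C643 and lowest in Huh-7, the line in which miR-181a-5p was highest. miR-181a-2-3p, from chromosome 9, had 1487 RPM in C643 (1461 to 1514), 342 RPM in Huh-7 (319 to 368) and 99.8 RPM in ES-2 (85.7 to 116). In C643 it ranked 59 among all miRNAs, close to the 5p arms of the family, against 120 in Huh-7 and 142 in ES-2. miR-181c-3p, from chromosome 19, had 55 reads or 6.72 RPM in C643 and 21 reads or 9.66 RPM in Huh-7, with overlapping intervals (5.16 to 8.75 and 6.32 to 14.8). It had 0 reads in ES-2, and against the limit of 3 reads it was at least 3.73-fold higher in C643 and at least 5.36-fold higher in Huh-7. These bounds leave out the counting error of the 55 and 21 reads, and with it the exact lower 95% limits of the ratios were 2.93 and 3.98.

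The 3p arms of miR-181b, which are not among the 7 members, were likewise highest in C643. miR-181b-3p had 85.4 RPM in C643 (79.3 to 92.0), 18.9 RPM in Huh-7 (13.9 to 25.6) and 15.6 RPM in ES-2 (10.7 to 22.9). miR-181b-2-3p had 60.1 RPM in C643 (55.0 to 65.7), 8.74 RPM in Huh-7 (5.60 to 13.7) and 2.41 RPM from 4 reads in ES-2 (0.935 to 6.18). ES-2 and Huh-7 overlapped for both. miR-181d-3p had 0 reads in each library. By share of reads, adding the 3p arms of the members left the order of the lines as it was for the 5p arms but narrowed the gap between Huh-7 and C643. The 7 members summed to 0.533% of reads in C643, 0.651% in Huh-7 and 0.242% in ES-2. Huh-7 exceeded C643 by 1.22-fold (1.20 to 1.24) for the members, against 1.73-fold for the 5p arms. The order of Huh-7 and C643 for the members depended on the scaling. Their 1.22-fold gap is smaller than the 1.57-fold by which the deposited column sum of C643 exceeded that of Huh-7. It is also smaller than the shift of the median miRNA (log2 C643 over Huh-7 of -0.75). C643 was therefore the higher of these lines under both other scalings.

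To set these differences against those of other miRNAs, log2(RPM + 1) was compared for all miRNAs with at least 10 RPM in 1 of the lines of a pair, and a difference of 4-fold or more was counted. This scale understates the fold of low miRNAs. 6 of the 7 members could be compared in each pair, and miR-181c-3p stayed below 10 RPM throughout. Between C643 and ES-2, 1 of the 6 members was past 4-fold, miR-181a-2-3p, 14.9-fold higher in C643 (12.8 to 17.5). Of all 348 miRNAs compared, 29.0% were past 4-fold, and 19.5% were so in the direction of C643. The next member was miR-181a-3p, 2.55-fold higher in C643 (2.22 to 2.93). miR-181d-5p, at 0.978-fold (0.683 to 1.43), and miR-181c-5p, at 1.71-fold (0.884 to 3.69), had intervals that include equal levels.

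Between C643 and Huh-7, miR-181a-2-3p was again the 1 member of 6 past 4-fold, 4.34-fold higher in C643 (4.03 to 4.68). Among the 442 miRNAs compared, 52.9% were past 4-fold and 17.4% were so towards C643. miR-181a-3p was 3.69-fold higher in C643 (3.20 to 4.28), just inside the threshold, and crossed it when the median miRNA or the deposited scaling was used as reference (log2 differences of 2.62 and 2.51). In the other direction miR-181d-5p was 3.11-fold higher in Huh-7 (2.48 to 3.89), and miR-181c-5p 1.34-fold (0.855 to 2.06). Between ES-2 and Huh-7 none of the 6 members was past 4-fold, against 56.3% of the 437 miRNAs compared. Here miR-181a-2-3p was 3.43-fold higher in Huh-7 (2.89 to 4.08), and miR-181a-3p was 1.45-fold higher in ES-2 (1.19 to 1.76). Which of these arms differed more depended on the scaling. The log2 differences of ES-2 minus Huh-7 were -1.77 and 0.53 by share. They were -0.86 and 1.43 as deposited, and -0.38 and 1.92 relative to the median miRNA. A 2-sided exact binomial test on the reads of 2 libraries, which compares those libraries and not the lines, called 4, 5 and 6 of the 6 members in the 3 pairs at an adjusted p under 0.05, and 307, 404 and 405 miRNAs in all.

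**Figure D2:**
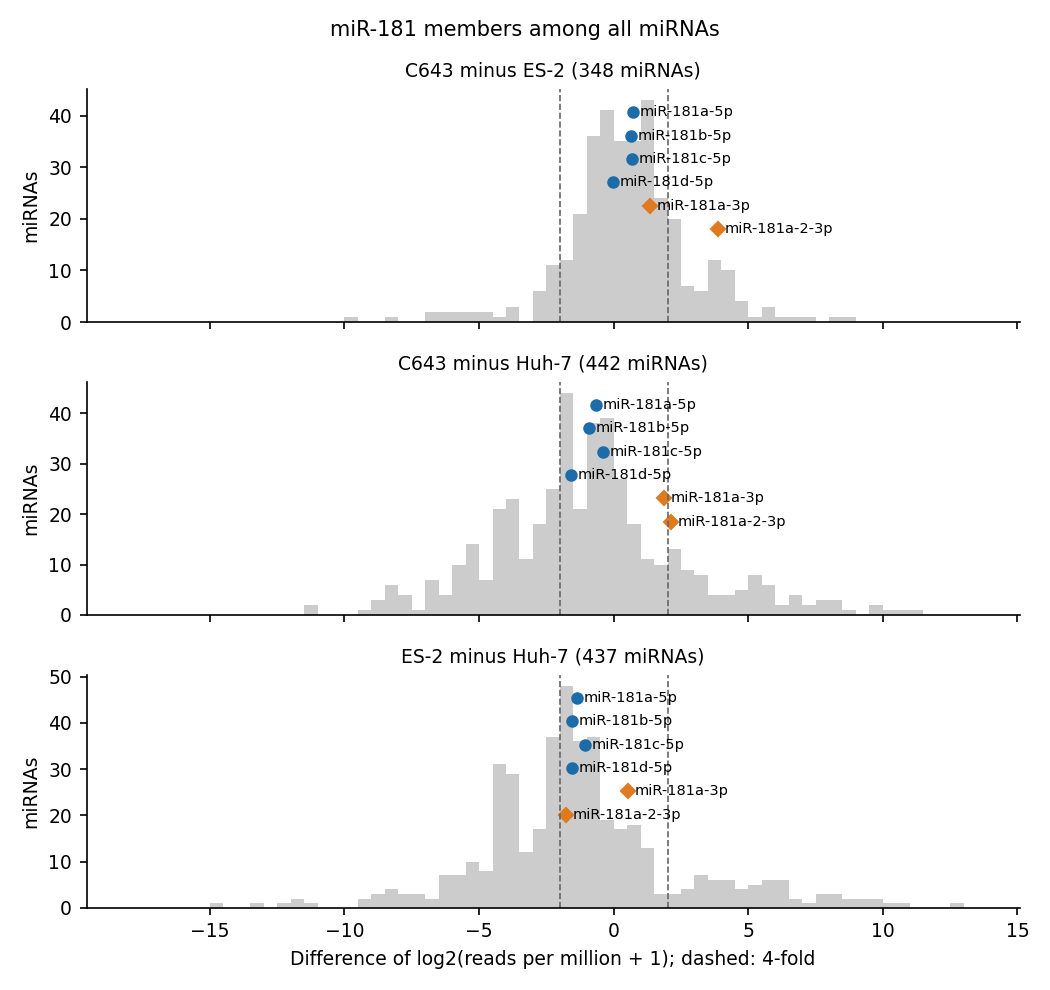
Number of miRNAs (y axis, grey) by difference of log2(RPM + 1) between the lines of each pair (x axis), with the 6 comparable miR-181 members marked at arbitrary heights (circles, 5p arms; diamonds, 3p arms). Dashed lines are at 4-fold. The 5p arms lie inside the dashed lines in all panels, and miR-181a-2-3p lies beyond them in both panels with C643.

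Over the 3 lines, the highest level exceeded the lowest by 2.59-fold for miR-181a-5p, 2.95-fold for miR-181b-5p, 2.11-fold for miR-181c-5p and 3.02-fold for miR-181d-5p, on the log2(RPM + 1) scale. The median of the 461 miRNAs with at least 10 RPM in a line was 8.98-fold. From 9.54% to 19.5% of these miRNAs had a smaller range than the 5p arms. miR-181a-3p, at 3.66-fold, had a smaller range than most miRNAs too (27.5% were below it), and miR-181a-2-3p, at 14.8-fold, had a larger one than 60.1%. Median absolute log2 differences of the members were 0.70, 1.25 and 1.47 in the pairs C643 with ES-2, C643 with Huh-7 and ES-2 with Huh-7, beside 1.24, 2.21 and 2.19 over all miRNAs compared.

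The ratio of the arms within a library does not depend on the scaling between libraries. In C643, miR-181a-5p and its 3p arms were almost equally abundant, with 14570 reads of the 5p arm and 14990 of both 3p arms, a ratio of 0.972 (exact 95% interval, 0.95 to 0.994). In ES-2, 1806 reads of the 5p arm stood against 391 of the 3p arms, a ratio of 4.62 (4.14 to 5.17). In Huh-7 the reads were 6107 and 947 and the ratio 6.45 (6.02 to 6.91). C643 was thus the line in which the 3p side was as abundant as the 5p side, and the interval of no other line came near it.

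The 5p reads were also split by locus, as the tables assign them to chromosomes. The chromosome 9 row had 0.605 5p reads per read of miR-181a-2-3p in C643 (0.587 to 0.623), 4.12 in Huh-7 (3.80 to 4.46) and 5.34 in ES-2 (4.52 to 6.34). The chromosome 1 row had 2.56 per read of miR-181a-3p in C643 (2.45 to 2.67), 15.0 in Huh-7 (13.0 to 17.4) and 4.09 in ES-2 (3.53 to 4.75). C643 had the lowest ratio in both rows. The chromosome 1 row held 49.5%, 50.9% and 49.9% of the 5p reads in C643, ES-2 and Huh-7. With so even a split, the contrast between the loci mostly restates the split of the 3p reads. It is not read as a difference between the hairpins.

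miR-181b had far more 5p than 3p reads in each line, and C643 was again lowest. The ratio was 11.6 in C643 (10.9 to 12.3), 115 in Huh-7 (89.1 to 151) and 59.5 in ES-2 (41.5 to 88.5). For miR-181c the ratio was 1.53 in C643 (1.07 to 2.19) and 1.43 in Huh-7 (0.791 to 2.63), and in ES-2 10 reads of the 5p arm stood against 0 of the 3p arm. Relative to 5p reads, the 3p arms of miR-181a and miR-181b were thus fewer in Huh-7 and ES-2 than in C643, whereas for miR-181c C643 and Huh-7 had overlapping intervals.

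**Figure D3:**
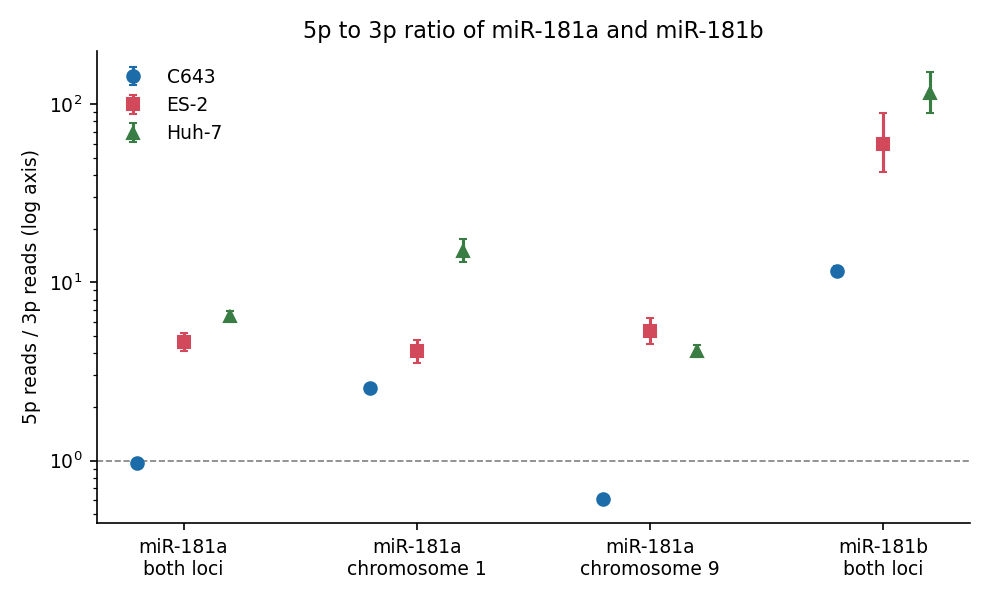
Reads of the 5p arm per read of the 3p arm (log y axis) for miR-181a, in all and by locus, and for miR-181b (x axis), in C643 (circles), ES-2 (squares) and Huh-7 (triangles), 1 library each, with exact 95% intervals. The dashed line marks equal arms. The locus columns use near-even 5p rows and are not read as levels of each hairpin. C643 is lowest in every column, at 0.972 for miR-181a and 11.6 for miR-181b.

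Shifts of this size were not rare among miRNAs. A comparison with all hairpins that had both arms listed and together at least 10 RPM in both lines was added after the miR-181a values had been seen. With 0.5 reads added to each arm, the 5p to 3p ratio of miR-181a differed 4.75-fold between ES-2 and C643, and 30.9% of 162 miRNAs differed by 4-fold or more (41 by more than miR-181a). Between Huh-7 and C643 it differed 6.63-fold, beside 36.0% of 178 miRNAs past 4-fold and 39 with a larger shift. Between ES-2 and Huh-7 it differed 1.40-fold, and 23.8% of 160 miRNAs were past 4-fold. miR-181b shifted 5.07-fold, 9.86-fold and 1.95-fold in the same pairs. The median signed shift over all miRNAs was -0.18, -0.03 and -0.11 on the log2 scale in the pairs C643 minus ES-2, C643 minus Huh-7 and ES-2 minus Huh-7. In 12 of 152 miRNAs (7.89%) with enough reads in all lines, the more abundant arm was not the same in the 3 lines. miR-181a was among them, but only by a ratio of 0.972 in C643, where its arms were almost equal, as the count set no margin.

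**Figure D4:**
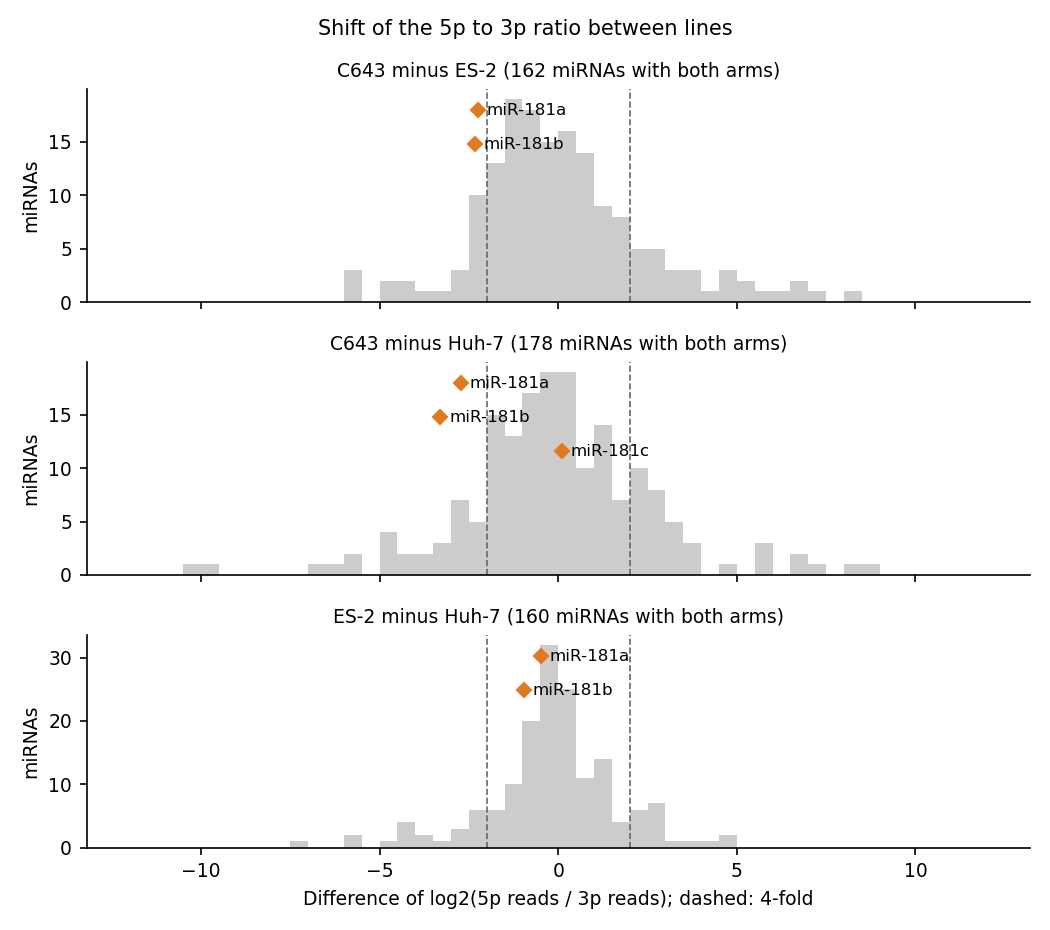
Number of miRNAs (y axis, grey) by difference of log2(5p reads / 3p reads) between the lines of each pair (x axis), with the miR-181 hairpins marked at arbitrary heights. Dashed lines are at 4-fold. miR-181a and miR-181b lie beyond the left line in both panels with C643 and inside the lines between ES-2 and Huh-7.

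Because the 3p arms of miR-181a differ in sequence, they show which locus the reads came from. The chromosome 1 part of these 3p reads was 18.8% in C643 (2820 of 14990 reads, 18.2 to 19.4), 21.4% in Huh-7 (203 of 947, 18.9 to 24.2) and 57.5% in ES-2 (225 of 391, 52.6 to 62.3). In C643 and Huh-7, miR-181a-2-3p exceeded miR-181a-3p by 4.32-fold (4.14 to 4.50) and 3.67-fold (3.13 to 4.30), whereas in ES-2 their ratio was 0.738 (0.600 to 0.906). ES-2 therefore stood apart from the other lines, whose intervals overlapped.

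The 3p arms of miR-181b, which mark the neighbouring hairpins of the same pairs, placed ES-2 highest as well but at another level. Their chromosome 1 part was 58.7% in C643 (55.9 to 61.5), 68.3% in Huh-7 (41 of 60, 55.8 to 78.7) and 86.7% in ES-2 (26 of 30 reads, 70.3 to 94.7). In each line it was higher than that of the miR-181a 3p arms. The parts of 3p reads thus differed between the hairpins of 1 pair, and they are parts of 3p reads, not of transcription from the locus.

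The rows of the 5p arms gave no such separation. The chromosome 1 row held 49.5% of miR-181a-5p reads in C643, 49.9% in Huh-7 and 50.9% in ES-2. For miR-181b-5p it held 46.8%, 45.0% and 44.9%. For miR-181a-5p these parts had intervals that include an even split in each line, although the 3p parts ranged over 38.7 percentage points. The mature 5p sequence is the same at both loci. A similar closeness was seen over 12 miRNAs with several loci and at least 100 reads of the shared arm in each line, miR-181a-5p and miR-181b-5p included. Their part of the first locus lay between 43.9% and 59.8% and ranged over a median of 1.36 percentage points across the lines, at most 4.73. It was not general. miR-138-5p, outside the 12 with 0 reads in Huh-7, had 77.7% of 264 reads in C643 and 65.2% of 391 in ES-2. miR-29b-3p, with 17 reads in Huh-7, had 48.2% and 53.9%. By the other arms, which are named by locus, 11 miRNAs with at least 20 such reads in each line were compared, again with miR-181a and miR-181b among them. They ranged over a median of 20.7 points, and 4 of them, miR-181a included, ranged over 38.7 or more. miR-24-3p, for instance, had 15.1%, 0% and 65.3% of its other-arm reads from the first locus in C643, ES-2 and Huh-7. miR-26a-5p had 15.5%, 0% and 14.8%, and miR-16-5p 0%, 0.205% and 0.340%. For let-7a-5p, with 3 loci, the part was 94.1%, 79.3% and 100%. It is that of let-7a-3p, which has 2 loci that it does not tell apart, and its range of 20.7 points is the median given above. The parts at 0 rest on 89, 43 and 12427 reads and allow up to 3.37%, 6.98% and 0.0241%. How reads that match several loci were assigned is not given in the sources used here, so the chromosome rows of the 5p arms are not read as locus levels.

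**Figure D5:**
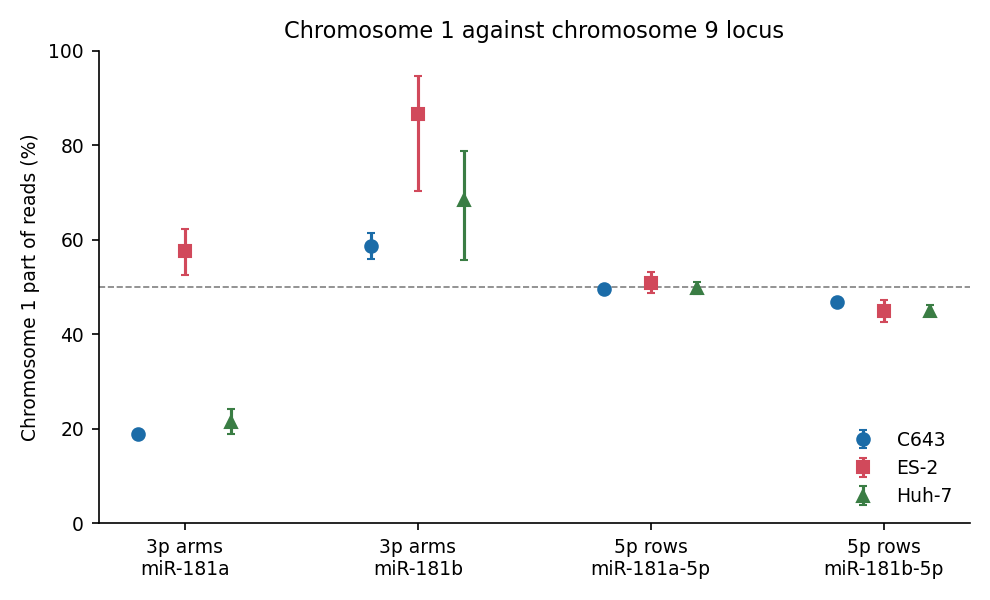
Part of reads (y axis, %) given to the chromosome 1 locus, by the 3p arms of miR-181a and miR-181b, which differ between the loci, and by the 5p rows, whose sequence is shared (x axis), in C643 (circles), ES-2 (squares) and Huh-7 (triangles), 1 library each, with 95% Wilson intervals. The dashed line is at 50%. The 3p arms of miR-181a range from 18.8% to 57.5%, and the 5p rows from 44.9% to 50.9%.

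miR-181b-5p per read of miR-181a-5p was 0.945 in C643 (0.923 to 0.967), 1.13 in Huh-7 (1.09 to 1.17) and 0.988 in ES-2 (0.925 to 1.06). miR-181b-5p was thus the more abundant of the pair in Huh-7, miR-181a-5p in C643, and in ES-2 the interval includes equal levels. miR-181c-5p per read of miR-181a-5p, its nearest relative, was 0.00577 in C643 (0.00460 to 0.00714), 0.00491 in Huh-7 (0.00331 to 0.00702) and 0.00554 in ES-2 (0.00265 to 0.0102), with overlapping intervals in all lines. miR-181d-5p per read of miR-181b-5p was 0.0129 in C643 (0.0111 to 0.0150), 0.0213 in Huh-7 (0.0180 to 0.0251) and 0.0207 in ES-2 (0.0145 to 0.0287). The last ratio was higher in Huh-7 than in C643, and ES-2 overlapped with both. Within the chromosome 19 pair, miR-181d-5p per read of miR-181c-5p was 2.12 in C643 (1.63 to 2.78), 4.90 in Huh-7 (3.29 to 7.52) and 3.70 in ES-2 (1.80 to 8.34), so that Huh-7 again stood above C643 and ES-2 overlapped with both. Together, the 5p arms of the chromosome 1 and 9 hairpins outnumbered those of chromosome 19 by 108-fold in C643 (95.7 to 123), 73.4-fold in Huh-7 (63.3 to 85.7) and 76.4-fold in ES-2 (57.3 to 104).

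Among 453 miRNAs, those most like miR-181a-5p over the 3 lines were found by the Euclidean distance between centred log2(RPM + 1) values. With only 3 points the measure describes these libraries and no more. The nearest 5 were miR-450a-2-3p (distance 0.0108), miR-15b-3p (0.113), miR-22-5p (0.123), miR-16-5p (0.129) and miR-1343-3p (0.153). Of these, miR-450a-2-3p and miR-1343-3p had only 3.61 and 4.21 RPM in ES-2, where 3 reads make 1.80 RPM. Their distances rest on few reads, and counting error was not taken into the distance. miR-16-5p, an abundant regulator of the cell cycle, had 4462, 3075 and 7709 RPM in C643, ES-2 and Huh-7. Within the family, miR-181b-5p was in place 7 (0.188) and miR-181c-5p in place 8 (0.228), while miR-181d-5p was in place 54, miR-181a-3p in place 209 and miR-181a-2-3p in place 268. miR-181a-5p was thus closer in pattern to the other 5p arms of the family than to the 3p strands of its own hairpins. The miRNAs nearest to miR-181c-5p were miR-33b-3p (0.0452), miR-4677-3p (0.0787) and miR-1292-5p (0.0943). All distances of miR-181c-5p rest on its 10 reads in ES-2.

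No other miRNA precursor lay within 100 kb of the pairs on chromosomes 1 and 9 in the annotation. On chromosome 19, MIR23A, MIR27A and MIR24-2 lie 38040 to 38340 bases from MIR181C on the opposite strand. Their 3p products were more abundant than miR-181c and miR-181d in each line and were highest in C643. miR-23a-3p had 18897, 10462 and 3655 RPM in C643, ES-2 and Huh-7, and miR-27a-3p 3512, 2377 and 643.2 RPM. Both were lowest in Huh-7, where miR-181d-5p was highest. For miR-181c-5p, Huh-7 and C643 were not distinguishable, and the sign of their difference depended on the scaling (log2 C643 minus Huh-7 of -0.39 by share, 0.20 as deposited and 0.35 relative to the median). miR-24-3p, with 12306, 4053 and 4618 RPM, has another locus elsewhere and is no measure of this cluster alone.

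Since the family is best known from blood cells, 6 miRNAs of the haematopoietic lineage were read beside it. miR-142-3p, the defining one, had 542 reads (326 RPM) in ES-2 and 0 in C643 and Huh-7. miR-155-5p had 2484 RPM in C643, 0 reads in Huh-7 and 7812 RPM in ES-2. For miR-146a-5p these levels were 2459, 7063 and 397 RPM. miR-223-3p and miR-150-5p, of myeloid cells and of mature lymphocytes, were at or below 2.93 RPM in each line. The line with miR-142-3p reads, ES-2, was the one with the lowest share of miR-181 5p arms. The list had no common order, however. miR-155-5p was highest in ES-2 too, whereas miR-146a-5p was lowest there and highest in Huh-7, as were the miR-181 5p arms. The sums of the blood cell and muscle lists differed between the lines as well: a set of 6 blood cell miRNAs summed to 24.6 RPM in C643, 486 RPM in ES-2 and to 1274 RPM for Huh-7, with 3, 1 and 3 of them at 0, and a set of 3 muscle miRNAs to 1.22, 1.80 and 12.9 RPM in this order. In Huh-7 the blood cell sum was carried by miR-486-5p, with 1273 RPM, while miR-142-3p and miR-142-5p had 0 reads there. The part of these lists and of the liver list in the miR-181 levels was not tested.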

How the data were processed

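Small RNA libraries were made from 50 ng of total RNA with the NEXTflex Small RNA kit v3 and sequenced on an Illumina HiSeq instrument. The paper also names Novogene as an alternative for making and sequencing such libraries, without saying for which of them. The submitters' processing notes name cutadapt 1.14, Bowtie2 2.3.3, SAMtools 1.5, featureCounts 1.5.3, edgeR 3.18.1 and the build hg38, without settings. How multi-mapping reads were treated, which miRNA annotation was used and whether the kit's random bases served as molecular identifiers are not given in the sources used here. The authors deposited a signal per locus, named CPM, whose columns sum to 959302 (C643), 1154552 (ES-2) and 612015 (Huh-7) and are therefore not plain CPM. Within a column, 100% of nonzero values were whole multiples of the smallest value (tolerance 0.01), so reads were recovered by division. 1 read was worth 0.117, 0.694 and 0.282 units of the deposited signal. PCR copies are not independent molecules, so intervals and the limit of 3 reads cover counting error only.

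Reads from all loci of a mature miRNA were added and divided by the library total (RPM). Shares were given Wilson 95% intervals, and ratios exact intervals from the binomial distribution. Pairs of lines were compared as log2(RPM + 1) for miRNAs at 10 RPM or more in 1 line, with 4-fold as threshold. The read test was an exact binomial test with Benjamini-Hochberg adjustment, which compares 2 libraries. The scripts were tested on simulated data. The members and lists were chosen with earlier results of these data known. Named by rule were the members, other miR-181 rows, miRNAs of the same seed, miR-21-5p, precursors within 100 kb, the haematopoietic list, the miRNAs nearest to miR-181a-5p and miR-181c-5p, and 4 miRNAs with several loci. The comparison of arm shifts over all miRNAs and the count of changing arms were added after the values had been seen. Positions were read from GENCODE on GRCh38 and sequences from RefSeq (GRCh38.p14), in which all 10 miR-181 names were found. Python 3.11.15, numpy 2.4.6, pandas 2.3.3, scipy 1.17.1 and matplotlib 3.10.9 were used.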

Additional observations from a re-analysis of the deposited data

How the results depend on the processing

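No paired analysis was possible because the lines have no replicates, so none could be left out either. The share of the 5p arms in C643, ES-2 and Huh-7 became 0.489%, 0.305% and 0.909% without miR-21-5p in the denominator, 0.335%, 0.253% and 0.371% of 1000000 deposited units, and 0.212%, 0.130% and 0.339% with 1 locus counted per mature miRNA. The order of the lines held in each. Of the 84 recomputed shares of single members, 40 stayed within the counting interval. Of 18 log2 differences of single members, 5 changed sign under some alternative, and none of these was past 4-fold.

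The number of members past the threshold between C643 and ES-2 was 2 of 7 with no filter on low values, 2 of 6 at 2-fold and 4 of 6 by the read test. Over all miRNAs these settings called 215 of 811, 201 of 348 and 307 of 348. Between C643 and Huh-7 it was 2 of 5 on the deposited scale and 2 of 6 with the median ratio set to 0. It was 3 of 6 at 2-fold, 0 of 6 at 8-fold and 5 of 6 by the read test. Over all miRNAs these settings called 190 of 399, 213 of 442, 320 of 442, 169 of 442 and 404 of 442. Between ES-2 and Huh-7 it was 1 of 7 with no filter and 1 of 7 with 1 locus per mature miRNA (miR-181c-3p in both). It was 5 of 6 at 2-fold and 6 of 6 by the read test. Over all miRNAs these settings called 374 of 975, 241 of 444, 346 of 437 and 405 of 437. Over all miRNAs the calls ranged from 37 to 307 around 101, from 120 to 404 around 234 and from 113 to 405 around 246.

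By construction, counting 1 locus per mature miRNA halved the weight of miR-181a-5p and miR-181b-5p. The 5p to 3p ratio of miR-181a was then 0.486, 2.31 and 3.22 in C643, ES-2 and Huh-7, the ratio of miR-181d-5p to miR-181b-5p 0.0259, 0.0415 and 0.0427, and that of miR-181c-5p to miR-181a-5p 0.0115, 0.0111 and 0.00982. With the 5p rows as assigned to chromosomes, the 5p to 3p ratio was 2.56, 4.09 and 15.0 for chromosome 1 and 0.605, 5.34 and 4.12 for chromosome 9. The C643 value for chromosome 1 lay on the other side of equality. As the 5p rows split near evenly, this is not read as a difference between the hairpins. The chromosome 1 part was 49.5%, 50.9% and 49.9% by the rows of miR-181a-5p, 46.8%, 44.9% and 45.0% by those of miR-181b-5p and, as an alternative chosen after seeing the data, 58.7%, 86.7% and 68.3% by the 3p arms of miR-181b. Other alternatives chosen after seeing the data changed the percentage of miRNAs with arm ratios 4-fold apart. It was 20.4%, 28.0% and 18.0% when the arms together reached 100 RPM in both lines. With 5 reads added to each arm it was 24.1%, 30.3% and 19.4%. ES-2 had the fewest reads, which leaves miR-181c-5p at 10 reads and miR-181b-2-3p at 4.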
